A study of Mus musculus with 8 samples.

Results

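Peaks of N4-acetylcytidine (ac4C) immunoprecipitation were examined in the mouse H2 histocompatibility interval, taken as the 2.3 Mb of chromosome 17 that start at base 34000001 in the build mm39. All peaks that lay wholly inside it, on either strand, were used. There were 506 such peaks among 105252 in the series (0.481%), and they merged into 377 regions of 75389 when same-strand peaks with 1 or more bases in common were joined. The choice used position alone, so it fixed no peak number, width, score or genotype difference. The interval was, however, chosen with earlier results of these data known. The peak lists carry no gene names, and no annotation of mm39 was used here. That the interval is the H2 complex therefore rests on its position, and no peak below is given to a gene.

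The cells were bone marrow derived monocytes from wild-type mice (WT) or from mice with a conditional knockout of Nat10 (CKO), the acetyltransferase that places ac4C on RNA. Both genotypes had been driven towards osteoclasts with RANKL for 3 days. Fragmented RNA precipitated with an ac4C antibody was sequenced beside its input, and 4 IP and 4 input samples yielded 4 peak lists, called here WT 1, WT 2, CKO 1 and CKO 2. The sources used here do not name the Cre driver or the cells in which Nat10 was deleted, nor do they say whether lists of a genotype came from separate mice. What spread there is among lists may thus be technical, and p-values reflect no more than that spread. Neither the loss of Nat10 nor the cell type could be checked here, since the peaks carry no gene names.

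The H2 complex holds some of the most gene-dense DNA of the mouse genome. Its class I genes (H2-K1 and H2-D1 among them) encode chains that show peptides from inside the cell to CD8 T cells, and its class II genes (H2-Aa, H2-Ab1, H2-Eb1) encode chains that show engulfed peptides to CD4 T cells. Between them lie genes that supply the peptides (Tap1, Tap2, Psmb8, Psmb9), complement genes (C2, Cfb, C4b), the cytokine genes Tnf, Lta and Ltb, HSP70 chaperone genes and many housekeeping genes. Monocytes and macrophages use both classes. In the RefSeq gene table of another build, GRCm38.p6, 125 protein-coding genes stand from H2-K1 to H2-T3, 23 of them with an H2 symbol. That table served for names and order only. Its genes were not placed in mm39, so H2-K1 and H2-T3 are not shown to bound the interval, and its gene number is unknown here. Several class I genes are close copies of each other, and the treatment of reads that match more than 1 copy is not stated in the labels. Sequences of the regions are not printed, since no mm39 genome was used.

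The WT 2 list stood apart from the other lists over the whole series. Peaks exactly 200 bases wide made up 6.51% of WT 2, against 24.1% of WT 1, 24.01% of CKO 1 and 24.4% of CKO 2. The lists held 24249 to 28087 peaks. The highest peak number in the names was 39584 in WT 2 and 45960 to 61914 in the others, and the list kept 62.8% of that number in WT 2 against 45.3% to 52.8% elsewhere. Read totals are not in the lists, so the depth behind a peak is unknown.

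The genotypes did not separate by peak number in the H2 interval, and the WT 2 list had far fewer peaks there than the other lists. WT 1 held 156 peaks, WT 2 held 66, CKO 1 held 125 and CKO 2 held 159. The WT mean was 111 ± 63.6 peaks and the CKO mean 142 ± 24.04 (SD, n = 2 each). The CKO mean was higher by 31 peaks, which is less than the SD of the WT lists, and WT 1 lay between the CKO lists. The two-sided p of an exact permutation test was 0.667, and adjusted over the 6 list measures tested here it was also 0.667. The smallest p that 2 lists in each genotype allow is 0.333. Without WT 2 the direction turned, with a difference of -14 peaks between the CKO mean and WT 1. A lower peak number can come with fewer cells that carry an RNA, less of that RNA per cell, less ac4C on it or too few reads. These cannot be told apart in bulk samples of unknown depth, and none was tested.

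As a share of its own list, the interval took 0.556% of the peaks of WT 1, 0.266% of WT 2, 0.445% of CKO 1 and 0.656% of CKO 2. The mean share was 0.411% ± 0.205 for WT and 0.55% ± 0.149 for CKO (SD, n = 2 lists; exact two-sided permutation p = 0.667, adjusted 0.667). Without WT 2 this difference turned as well, to -0.00548 percentage points. Again WT 2 was lowest and CKO 2 highest. On the rest of chromosome 17 the same 4 lists were alike, at 4.29%, 4.18%, 3.96% and 4.14% of their peaks. Inside the interval the WT lists differed by more than along the rest of the chromosome. That rest is an average over a longer stretch, and windows of the interval's own size are compared below. Just before the interval, in a stretch of the same length, WT 2 held 74 peaks beside 80, 66 and 66 in WT 1, CKO 1 and CKO 2. Just after it, the lists held 20, 8, 19 and 23 peaks in the order WT 1, WT 2, CKO 1, CKO 2.

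**Figure D1:**
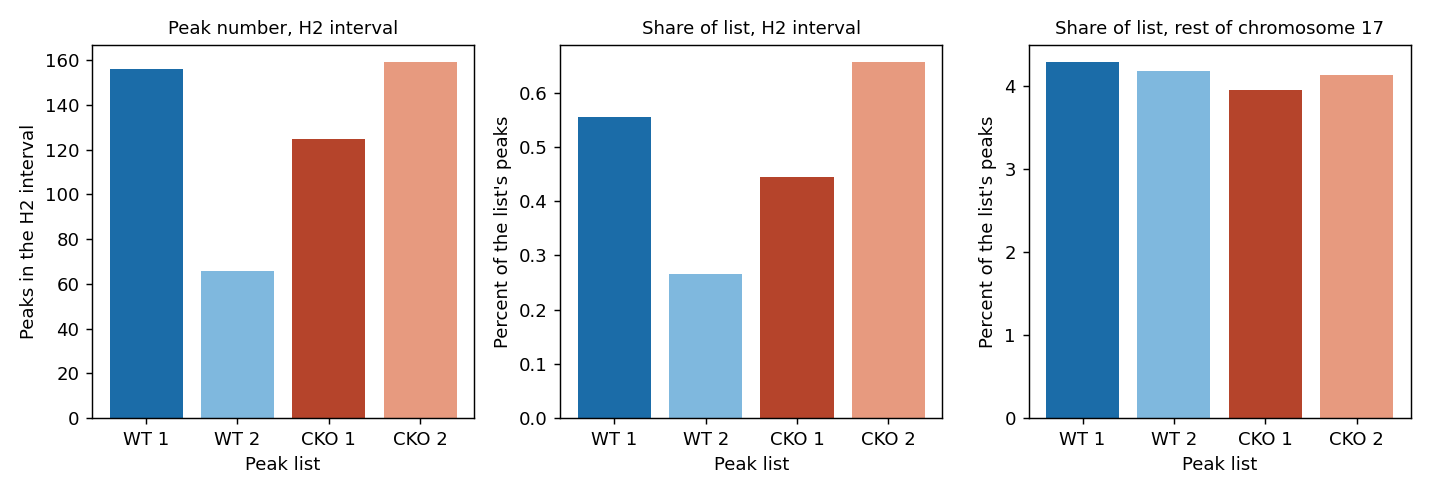
Bars give, for each of the 4 peak lists, the number of peaks in the H2 interval (left), their percent of all peaks of the list (middle) and the percent of the list on the rest of chromosome 17 (right). WT 2 has 66 peaks in the interval against 125 to 159 in the other lists, while on the rest of the chromosome all lists lie between 3.96% and 4.29%.

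The tests of the other list measures could not separate the genotypes either, since no p under 0.333 is possible with 2 lists each. Bases covered and median width overlapped between the genotypes. Peaks covered 18328, 9231, 15608 and 21607 bases in WT 1, WT 2, CKO 1 and CKO 2 (exact two-sided permutation p = 0.667, adjusted 0.667). In the same order, the peaks had median widths of 89, 111, 100 and 129 bases (exact p = 0.667, adjusted 0.667), against 113, 110, 115 and 120 bases over whole lists. The interval's peaks were narrower than their own list's median in WT 1 and CKO 1 and wider in WT 2 and CKO 2.

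Each peak carries a score from the authors, and since each list was called separately the score was used only as a rank within its list, from 0 for the weakest to 100 for the strongest. The interval's peaks were of ordinary strength, with a median percentile of 47.4 in WT 1, 47.4 in WT 2, 50.8 in CKO 1 and 48.3 in CKO 2. The strongest 10% of a list supplied 13, 11, 14 and 14 of its peaks there. For WT 2 this was 16.7% of its interval peaks, against 8.33%, 11.2% and 8.81% in WT 1, CKO 1 and CKO 2. The median percentiles of the genotypes did not overlap, but they differed by 2.2 points and the exact two-sided permutation p was 0.333, the smallest possible (adjusted 0.667). Among the top 50% of each list the difference turned to -2.23.

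On the plus strand lay 59.6% of the interval's peaks in WT 1, 62.1% in WT 2, 64.0% in CKO 1 and 64.2% in CKO 2. Over the whole lists the plus strand held 50.7% to 51.3%, so every list leaned to the plus strand here. The genotype difference of 3.21 points had an exact two-sided permutation p of 0.333 (adjusted 0.667) and turned to -6.48 among peaks of 100 bases or more.

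Along the interval the peaks came in clusters, and WT 2 was low in most of them. Of 23 bins of 100 kb, 21 held peaks, and WT 2 had the lowest number, without a tie, in 14 of these. The same held for WT 1 in 1 bin, for CKO 1 in 2 and for CKO 2 in 1. WT 2 had the fewest peaks in the interval, so such counts restate its total in part, and they are not given for the series. The fullest bin, 35300001 to 35400000, held 21 peaks of WT 1, 5 of WT 2, 20 of CKO 1 and 25 of CKO 2. In the bin from 34400001 to 34500000 the counts were 15, 2, 8 and 12. In the first bin, 34000001 to 34100000, WT 2 instead had the most, with 5 peaks against 3, 3 and 2.

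The 3 fullest stretches in which WT 2 had no peak on either strand held 39, 34 and 21 peaks of the other lists. The first ran over 381.7 kb from 34402719 to 34784446 and held 16 peaks of WT 1, 8 of CKO 1 and 15 of CKO 2. Another, of 30.8 kb from 35342278 to 35373083, held 11, 11 and 12. A last one, of 194.3 kb from 35468046 to 35662324, held 7 of each other list. CKO 1 had a stretch of similar length and largely the same place, 374.1 kb from 34434899 to 34809019, which held 19 peaks of the other lists. The fullest stretch without WT 1 held 12 and that without CKO 2 held 11. A list with fewer peaks leaves longer gaps, so these stretches restate the low total of WT 2 in part. They are not given for the series.

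**Figure D2:**
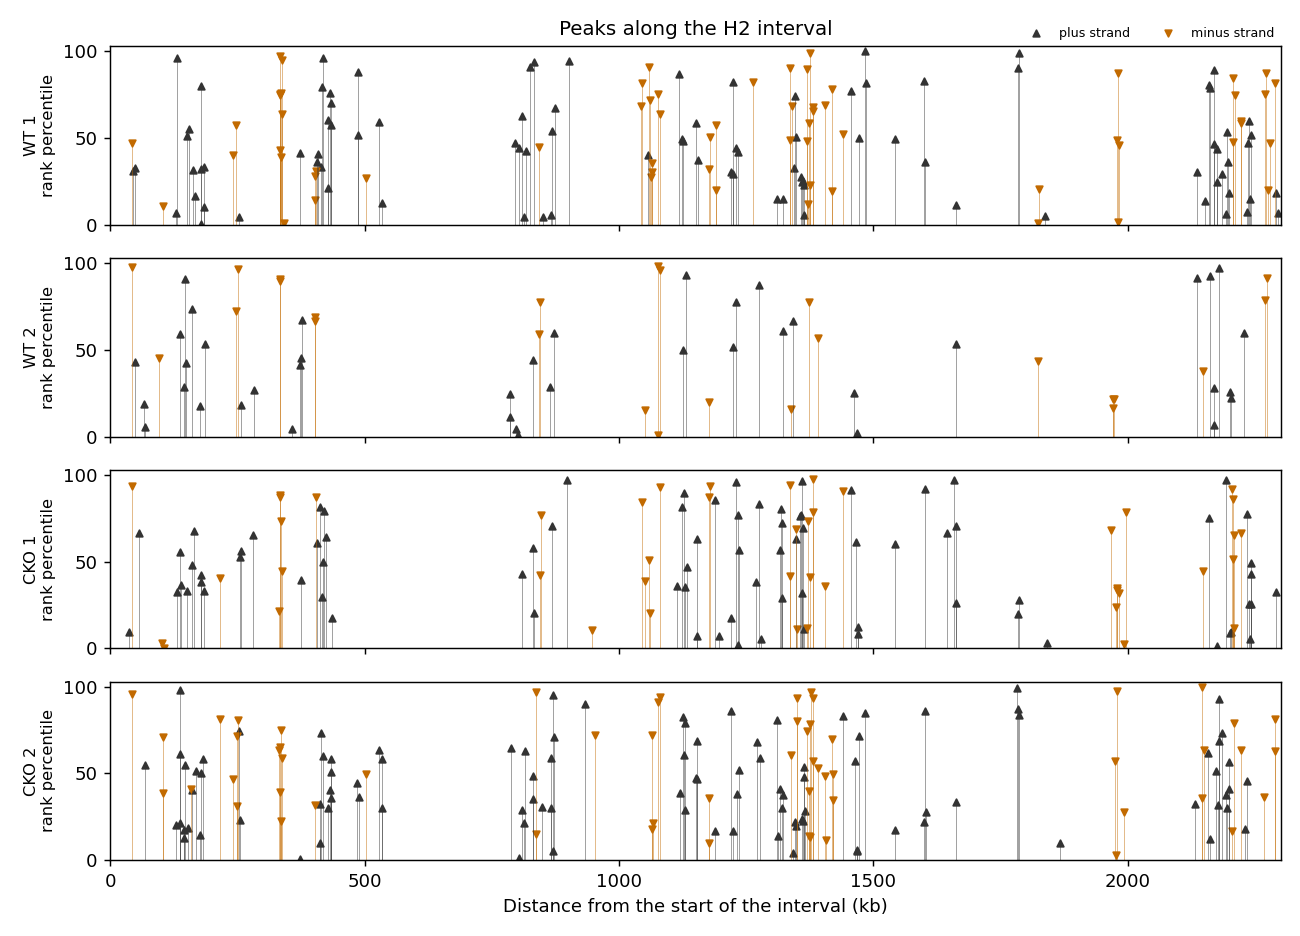
Each marker is a peak of the list named at the left, placed by its distance from the start of the H2 interval in kb (x axis) and by its rank percentile within its own list (y axis), with upward markers for the plus strand and downward markers for the minus strand. WT 2 has no peak in a stretch of 381.7 kb that begins about 400 kb from the start, where WT 1, CKO 1 and CKO 2 have 16, 8 and 15.

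To group neighbouring peaks, same-strand peaks of any list were chained across gaps of up to 5000 bases. This gave 91 loci, 55 on the plus and 36 on the minus strand. Gaps of up to 1000 bases gave 213. Without an annotation a locus cannot be taken as a single transcript, and it may span neighbouring genes. WT 1 had a peak in 67 of them, WT 2 in 43, CKO 1 in 60 and CKO 2 in 68. The 10 loci with the most peaks held 165 peaks, 32.6% of the interval's peaks, of which 54 were of WT 1, 14 of WT 2, 48 of CKO 1 and 49 of CKO 2. WT 2 had the lowest number without a tie in 8 of these 10. Over all 91 loci it was lowest alone in 23, against 3 for WT 1, 8 for CKO 1 and 1 for CKO 2. The 10 loci were picked by their total over the lists, to which WT 2 adds least. These counts thus restate its low total in part, and they are not given for the series.

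The locus with the most peaks, on the plus strand at 34406801 to 34434898, held 10 peaks of WT 1, 0 of WT 2, 7 of CKO 1 and 9 of CKO 2, in 18 regions. WT 2 was empty in this locus, which was also the widest at 28.1 kb, and WT 1 lay above both CKO lists. A minus-strand locus at 34331175 to 34341337 held 9, 2, 5 and 6 peaks in the order WT 1, WT 2, CKO 1, CKO 2. The minus-strand locus at 35368885 to 35382022 held 8, 1, 5 and 8. Its plus-strand neighbour at 35355091 to 35365772 held 5, 0, 6 and 5. In all 4 of these loci WT 1 was within or above the range of the CKO lists, and WT 2 was below it.

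Of the next 6 loci by peak number, WT 2 was lowest alone in 4. The minus-strand locus at 35967640 to 35981854 held 4, 3, 5 and 3 peaks in the order WT 1, WT 2, CKO 1, CKO 2, and no list was lowest alone. The plus-strand loci at 36228607 to 36242999, 34176823 to 34185338 and 36192170 to 36203407 held 5, 1, 6 and 2, then 5, 2, 3 and 3, then 4, 2, 3 and 4. The locus at 35124105 to 35132725 held 2, 2, 4 and 4. At 35309345 to 35321758 the WT lists held 2 and 1 and the CKO lists 4 and 5. These last loci were the only ones of the 10 in which every CKO list exceeded every WT list.

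**Figure D3:**
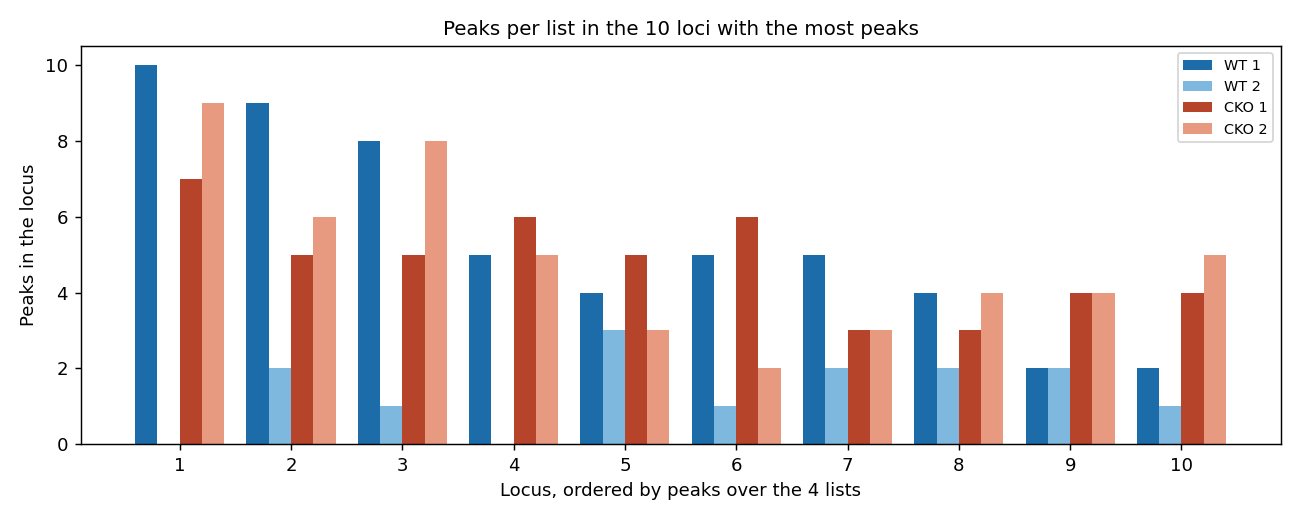
Bars give the number of peaks of each list (y axis) in the 10 loci of the H2 interval with the most peaks, ordered by their total (x axis). WT 2 has the lowest bar without a tie in 8 of the 10, and in loci 1 and 4 it has 0 peaks.

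Over all 91 loci, every CKO list exceeded every WT list in 12 (13.2%), and the reverse held in 5 (5.49%). Over the 27045 loci of the whole series these shares were 6.45% and 7.16%. The loci of the interval held more lists than those of the series (27 of 91, or 29.7%, had peaks of all 4 lists, against 18.2%), and WT 2 was low in many of them, whose part in the first count was not tested. Loci with peaks of the other 3 lists and none of WT 2 numbered 13 (14.3%), against 6.53% of loci in the series. Those without WT 1 numbered 2 (background 4.29%), without CKO 1 numbered 4 (background 4.07%) and without CKO 2 numbered 1 (background 5.76%).

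Regions in which the same bases were marked showed no excess of either genotype. A peak in both WT lists and in no CKO list, termed a WT-only region, was found in 8 of 377 regions (2.12%), below the 4.26% of regions in the series. The opposite, a CKO-only region marked in CKO 1 and CKO 2 but not in WT, was found in 11 (2.92%), against 3.64% in the series. A WT-only region needs a peak of WT 2, which had 66. When 1 list is left out, the other list alone stands for its genotype: the WT-only and CKO-only counts were 36 and 21 without WT 1, 94 and 15 without WT 2, 8 and 102 without CKO 1, and 13 and 79 without CKO 2. In the top 50% of each list by score they were 5 and 2, and among peaks of 100 bases or more 1 and 5. Shares over the series under these settings are not given, so none of these counts is read as an excess or a lack. Of the regions, 273 (72.4%) had a peak in 1 list, near the 69.1% of the series, and 2 (0.531%) had a peak in all 4 lists, against 0.964%.

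Of the regions in 3 lists, 11 lacked WT 2 (2.92% of the interval's regions, background 1.7%), 5 lacked WT 1 (1.33%, background 1.41%), 5 lacked CKO 1 (1.33%, background 1.42%) and 0 lacked CKO 2 (background 1.72%). Regions of WT 1 and CKO 2 alone, a pair that mixes the genotypes, numbered 24 (6.37%, against 3.84% in the series), more than for any other pair in the interval. WT 1 and CKO 2 were also the lists with the most peaks in the interval, and the part of this in the count was not tested. In the series the pair of WT lists came first at 4.26%, but mixed pairs were close. WT 1 with CKO 1 had 4.24% and WT 2 with CKO 1 had 4.16%. CKO 2 alone held 91 regions and WT 2 alone 28.

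**Figure D4:**
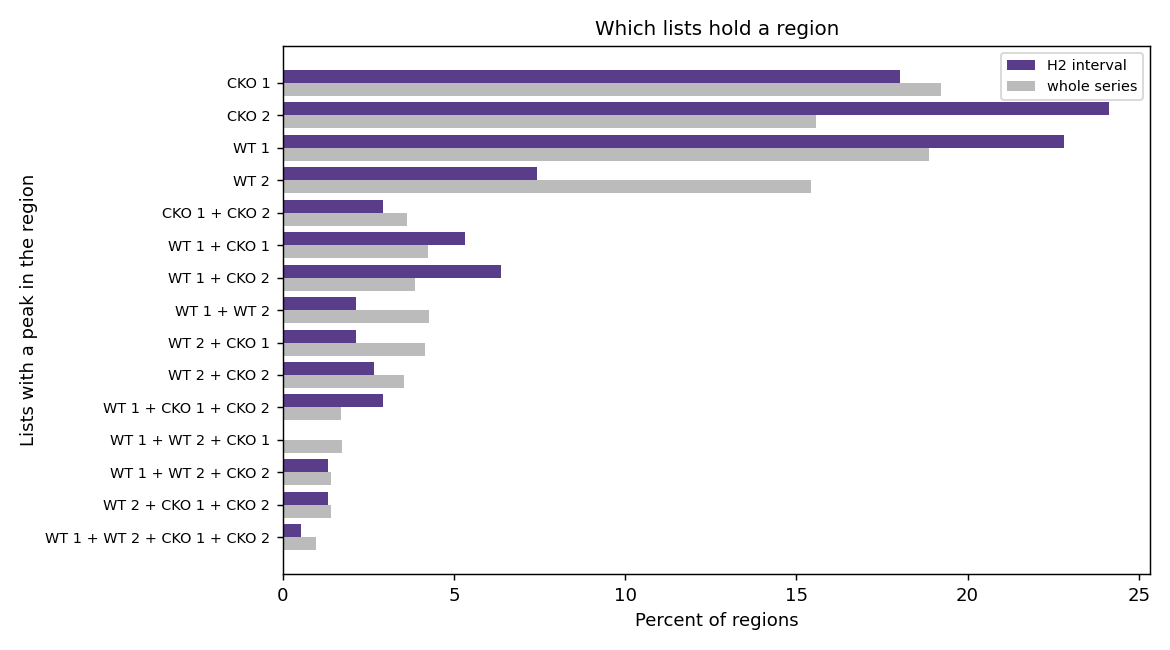
Bars give the percent of regions (x axis) held by each combination of lists (y axis) in the H2 interval (dark) and in the whole series (grey). Regions of WT 2 alone make up 7.43% of the interval against 15.4% of the series, and regions of CKO 2 alone 24.1% against 15.6%.

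Overlap between lists differed more among pairs here than in the series. The Jaccard index, the bases shared by a pair of lists over the bases covered by either, was 0.0511 for WT 1 with WT 2, the lowest of the 6 pairs, whereas over the whole series this pair had 0.0983. It was 0.0726 for CKO 1 with CKO 2 (0.0899 in the series). The highest values were those of WT 1 with CKO 2, at 0.111, and WT 1 with CKO 1, at 0.109. WT 2 with CKO 1 stood at 0.0541 and WT 2 with CKO 2 at 0.0841. Over the series all 6 pairs lay close together, from 0.0899 for CKO 1 with CKO 2 to 0.0992 for WT 2 with CKO 1. The index of 2 lists of unequal size is bounded by their sizes, and the pairs share lists, so no test was made. Of the 66 peaks of WT 2, 15 (22.7%) lay in a region of WT 1, near the 25.5% of the series. Of WT 1's peaks, 15 (9.62%) lay in a region of WT 2, against 22.8% in the series.

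The 2 regions with peaks in every list both lay on the minus strand. At 34042167 to 34042304 the peak stood at percentile 47.3 in WT 1, 97.6 in WT 2, 93.4 in CKO 1 and 95.6 in CKO 2. At 34332544 to 34332594 it stood at 42.9, 89.5, 88.5 and 65.0 in the same order. WT 1 ranked these peaks lowest in both, and WT 2 ranked them highest.

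The 8 WT-only regions were 33 to 283 bases long, and 6 of them had a CKO peak within 5000 bases on the same strand. The interval is dense in peaks and no such share is given for other regions, so this nearness is not read as their trait. The strongest by mean percentile, at 35076195 to 35076295 on the minus strand, stood at 75.4 in WT 1 and 98.2 in WT 2, where it was the highest-ranked peak of the interval. The nearest CKO peak lay 348 bases away. The next, at 36269217 to 36269249 on the minus strand, stood at 75.5 and 78.8, with a CKO peak 1194 bases away. The third, at 34247543 to 34247752 on the minus strand, stood at 57.3 and 72.3, and a peak of CKO 2 lay 105 bases away. The regions at 35230209 to 35230300 (plus), 34842005 to 34842088 (minus) and 34402102 to 34402204 (minus) followed, with CKO peaks 583, 2721 and 389 bases away. The other 2 stood farther from any CKO peak: 34048641 to 34048680 (plus) by 8392 bases and 35823799 to 35824081 (minus) by 143558 bases. The last of these was among the weakest peaks of WT 1, at percentile 0.68.

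The 11 CKO-only regions were 39 to 572 bases long, and 7 had a WT peak within 5000 bases on the same strand. Again no such share is given for other regions. The strongest by mean percentile, on the plus strand at 36158215 to 36158786, stood at 74.9 in CKO 1 and 61.8 in CKO 2, with a WT peak 515 bases away. The CKO lists ranked most of the others unlike each other. The plus-strand region at 35360402 to 35360449 stood at 96.2 in CKO 1 and 23.9 in CKO 2, and that at 36203674 to 36203858 on the minus strand at 91.9 and 17.1 (WT peaks 369 and 2317 bases away). In the opposite sense, the minus-strand regions at 35349056 to 35349154 and 36208084 to 36208323 stood at 11.2 and 11.8 in CKO 1 but at 80.3 and 79 in CKO 2 (WT peaks 9552 and 1306 bases away). The plus-strand region at 35188939 to 35189264 lay farthest from any WT peak, at 31123 bases, and stood at 85.6 in CKO 1 and 17 in CKO 2. The regions at 35320804 to 35320844, 35315315 to 35315353 and 35362442 to 35362642 (plus) and at 34331175 to 34331682 (minus) had WT peaks 296, 5787, 484 and 861 bases away.

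The 11 regions held by WT 1, CKO 1 and CKO 2 but not WT 2, named here after their values were seen, included strong peaks. The strongest, at 35381926 to 35382022 on the minus strand, stood at 65.2 in WT 1, 97.6 in CKO 1 and 93.4 in CKO 2, and the nearest WT 2 peak lay 8751 bases away. At 34335994 to 34336185 on the minus strand the percentiles were 75.6, 73.7 and 75.0, with a WT 2 peak 1580 bases away. At 35785038 to 35785444 on the plus strand they were 98.7, 28.1 and 84.0, and the nearest same-strand WT 2 peak lay 122419 bases away. The 5 regions that lacked only WT 1 included 1 that stood higher by mean percentile (94.3) than any of these 11 (at most 85.4), on the minus strand at 35081028 to 35081078, with 95.8 in WT 2, 93.0 in CKO 1 and 94.0 in CKO 2.

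Of the 3 highest-ranked peaks of each list, 5 of 12 were in no other list, against 46.8% to 51.6% of all peaks of a list over the series. In WT 1 the first, at 35482355 to 35482512 (plus), stood at percentile 99.9 and was in no other list, while those at 35375710 to 35376100 (minus, 99.2) and 35785038 to 35785444 (plus, 98.7) were also in both CKO lists. In CKO 2 all of the first 3, at 36146008 to 36146251 (minus, 99.9), 35781957 to 35781998 (plus, 99.4) and 34137530 to 34137735 (plus, 98.4), were in that list alone. In CKO 1 the first, at 35381926 to 35382022 (minus, 97.6), was shared with WT 1 and CKO 2. Its second, at 36192170 to 36192373 (plus, 97.1), was shared with WT 1, and the third, at 34898011 to 34898093 (plus, 96.9), with no list. In WT 2 the first was the peak at 35076195 described above. Its next peaks were at 34042194 to 34042304 (minus, 97.6), shared with every list, and at 36178319 to 36178523 (plus, 96.9), shared with CKO 2.

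To place the interval among others, the genome was laid out in windows of the same 2.3 Mb, of which 139 held 200 peaks or more over the 4 lists. This comparison was chosen after the counts above were seen. The interval was among the densest, with 506 peaks against a median of 271, and 3 windows, itself included, had as many. For each list its share of a window's peaks was divided by its share of all peaks, so that 1 means as in the series. In the interval this ratio was 1.16 for WT 1, 0.552 for WT 2, 0.926 for CKO 1 and 1.36 for CKO 2. The ratio of WT 2 was the lowest of the 139 windows (0.719% of windows at or under it), where the next lowest was 0.581 and the median 0.896. The ratio of CKO 2 was the highest (0.719% at or above it), where the next highest was 1.34. WT 1 and CKO 1 were within the range of other windows. The ratios share the window's total, so a low count of 1 list raises the ratios of the others. Set directly against each other, the ratio of CKO 2 over that of CKO 1 was 1.47. In 4 windows, the interval included, it was as high or higher, up to 1.59. WT 1 over WT 2 was 2.09, with 2 windows, the interval included, as high or higher, up to 2.12.

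The lists as deposited hold only peaks in mRNA, and the numbers in the peak names, which rise along every chromosome in every list, let the peaks left out be counted if the caller numbered without gaps. From the first to the last listed peak of the interval the numbers spanned 188 in WT 1, 81 in WT 2, 157 in CKO 1 and 189 in CKO 2. The lists kept 83.0%, 81.5%, 79.6% and 84.1% of these. Over the 4 lists together 82.3% were kept, the highest of the 139 windows, whose median was 64.2%. On all called peaks the interval took 0.304% of WT 1, 0.205% of WT 2, 0.262% of CKO 1 and 0.411% of CKO 2, which is the same order as before with a smaller gap. WT 2, which kept more of its calls than the others over the genome, then had a ratio of 0.69, and 8 of the 139 windows, the interval included, were as low or lower. CKO 1 ranked equally low, with a ratio of 0.882 and 8 windows at or under it. CKO 2 had 1.39 and was still the highest, and WT 1 had 1.02. Across the 139 windows Spearman's rho between the WT 2 ratio in deposited peaks and the share of calls kept was -0.36. In the 14 windows with the highest share kept, the median WT 2 ratio in deposited peaks was 0.728. The lowest of these outside the interval was 0.6. The windows share the same 4 libraries, and these values are a description only.

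**Figure D5:**
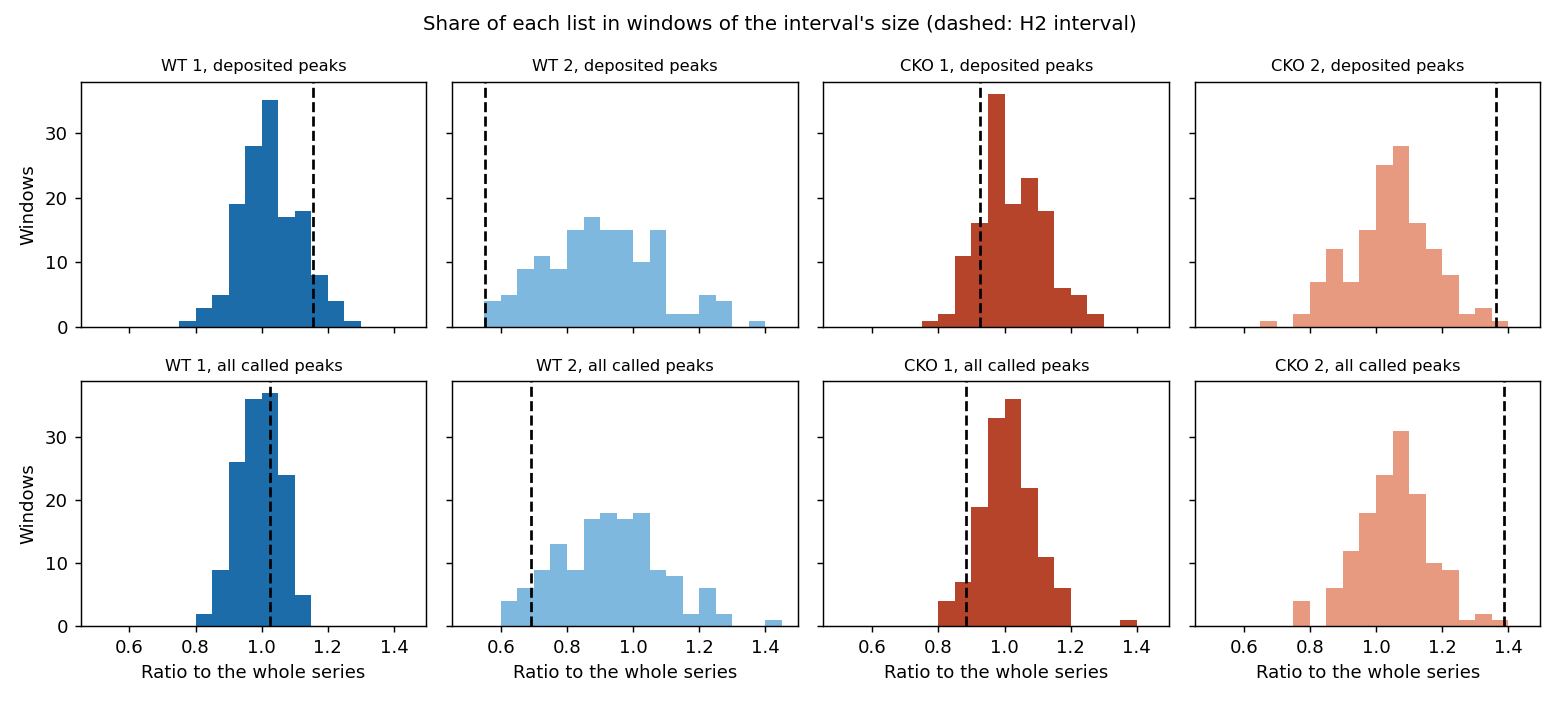
Histograms of the 139 windows by each list's share of the window's peaks relative to its share of the series (x axis, ratio), for deposited peaks (top) and all called peaks counted from the peak numbers (bottom); the dashed line is the H2 interval. WT 2 lies at the low end of the deposited peaks (0.552) and at 0.69 for called peaks, and CKO 2 at the high end in both (1.36 and 1.39).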

How the data were processed

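The labels describe the 4 deposited lists as MACS2 peaks of IP over input, and the peak names show calls per library. Per the submitters' processing notes, fastp 0.20.1, STAR 2.7.8a, MACS2 2.2.7.1 and the build mm39 were used. The deposited score of each peak has no stated scale, and the sources used here do not say how peaks were limited to mRNA or given a strand. An uncalled peak is therefore not an absence of ac4C. Deposited positions (another kind of value, in bases) were read as BED and printed counting from 1.

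Each list was matched by the code in its peak names to an IP sample title, and its genotype came from that sample's label. The 4 lists' measures were tested by an exact two-sided permutation, with Benjamini-Hochberg adjustment over 6 measures. Named were regions in all 4 lists, up to 10 WT-only and 10 CKO-only regions by mean percentile, the 10 loci with most peaks and the 3 strongest peaks per list. The interval, rules and lists were chosen with earlier results of these data known. Planned counts by gene, sequence motifs and cell type markers were left out because no mm39 reference was used. Equal numbers in titles were not taken as pairs. The merge was tested on simulated lists. Python 3.11.15, pandas 2.3.3, numpy 2.4.6 and scipy 1.17.1 were used.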

Additional observations from a re-analysis of the deposited data

How the results depend on the processing

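In the top 50% of each list there were 5 WT-only, 2 CKO-only and 0 regions in all 4 lists, and the median percentile difference turned to -2.23. Among peaks of 100 bases or more there were 1, 5 and 1, and the plus-strand difference turned to -6.48. Equal numbers of top-scored peaks gave 7 CKO-only regions. Gaps of up to 1000 bases gave 213 loci. For the region counts under these settings and those below, shares over the series are not given. Leaving out 1 list gave differences of -14 to 76 peaks and -0.00548 to 0.285 percentage points of the list, 8 to 94 WT-only regions, 15 to 102 CKO-only regions and 2 to 13 regions in all remaining lists; without WT 2 the peak number and share turned. The labels do not say that equal numbers mark paired samples. Pairing cannot change a difference of means, so the replicate block left the peak difference at 31 by construction. It gave 83.5 WT-only and 114.5 CKO-only regions, since 1 list then stands for each genotype. Deviations of same-numbered lists over the windows correlated at -0.171, and crossed numbers (added after seeing the data) gave 82.5 and 113.5. The window comparisons were also added: with windows of 100 peaks or more, 3 of 410 had a WT 2 ratio as low, and on all called peaks 8 of 139. Of 80 values under alternatives with all lists, 64 kept their direction or stayed near the reported value. These 64 include the 6 list measures under both pairings, which repeat the reported values by arithmetic and are no check. Read depth is unknown, so too few reads may lie behind any peak not called.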
